A study of Mus musculus with 4 samples.

Results

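The tropomyosins and the contractile actin-binding genes described here are 10 genes of 23005 genes and unnamed transcript entries measured in mouse embryonic fibroblasts (MEFs): Tpm1, Tpm2, Tpm3, Tpm4, Acta2, Actg2, Actc1, Tagln, Cnn1 and Myl9. The members are a fixed list of symbols, each represented by its transcript entry with the highest mean level over all libraries. The 4 libraries came from MEFs labelled Mll1-/- with TNF, MEFs labelled Mll1-/- with control solution, wild-type MEFs (Mll1+/+) with TNF and wild-type MEFs with control solution. TNF, an inflammatory cytokine, was given for 4 hr, at 10 ng/ml by the design text, with a different unit in the treatment protocol, and all cells grew in the same serum-containing medium. The harvests of 3 treatments were pooled into 1 library per group, so there is no spread between replicates of a group, no difference was tested, and each value describes 1 library. The series compares the transcription that follows TNF in cells with and without Mll1 (Kmt2a), a histone H3 lysine 4 methyltransferase. The labels give no allele, age, strain or clone for the MEFs.

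Tropomyosins are coiled-coil proteins that lie end to end along actin filaments and decide which myosins and filament-severing proteins can reach them. In fibroblasts, long tropomyosins from Tpm1 and Tpm2 mark contractile stress fibres, while Tpm3 and Tpm4 also supply shorter forms. Smooth muscle actin (Acta2), transgelin (Tagln), calponin (Cnn1) and the regulatory light chain Myl9 are textbook markers of smooth muscle and of myofibroblasts. Serum response factor with its coactivators drives many of these genes through a promoter element called the CArG box.

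Levels are RPKM, reads per kilobase of transcript per 1000000 library reads, as the authors deposited them. The libraries held between 19306506 and 27977248 reads. Ratios are given as folds of RPM (reads per 1000000 library reads) with a 95% Clopper-Pearson counting interval, which covers counting error only. A gene was counted as higher or lower when its log2 ratio of RPKM + 0.5 was at least 1 in size, a 2-fold difference on that scale, which understates the change of low genes. Of the 10 members, 8 reached 1 RPKM in at least 1 library, and Cnn1 and Myl9 did not. The transcript level of the targeted gene did not separate the labels: Kmt2a was at 1.66 and 2.02 RPKM in the libraries labelled Mll1-/- with TNF and with control solution, against 2.11 and 1.85 RPKM in the wild-type libraries. Its fold was 0.785 with TNF (counting interval 0.705 to 0.874) and 1.09 without TNF (0.985 to 1.21). A level over the whole transcript cannot show whether an allele that is not given leaves a working protein. The genotype is therefore given as a label throughout. Some fibroblast markers also differed: Col3a1, a fibrillar collagen gene, was at 23.5 and 28.1 RPKM in the libraries labelled Mll1-/- with TNF and control solution, against 0.296 and 0.531 RPKM in wild type. Dcn, a small proteoglycan of fibroblast matrix, was listed at 15.2 and 9.16 RPKM, against 0 in both wild-type libraries. Col3a1 and Dcn had the highest ratios without TNF of the fibroblast genes measured. The lowest were those of Vim and S100a4, at log2 -0.15 and -1.14. In bulk libraries, fewer cells of a type and less RNA per cell cannot be told apart.

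Tpm2 was the member that differed most between the genotype labels. It encodes beta-tropomyosin, a long tropomyosin of muscle and of stress fibres. Tpm2 (entry NM_009416.3) stood at 114.7 RPKM (4646 reads) with TNF and 114.1 RPKM (4807 reads) with control solution in the libraries labelled Mll1-/-, against 3.20 RPKM (188 reads) with TNF and 3.20 RPKM (186 reads) with control solution in wild type. Both libraries labelled Mll1-/- were high, both wild-type libraries were low, and the values with and without TNF were nearly the same within each label. The fold was 35.8 with TNF (counting interval 30.9 to 41.7) and 35.7 without TNF (30.8 to 41.5). Among 14386 genes and unnamed entries compared, Tpm2 had the 15th highest log2 ratio in each of these comparisons. Tpm2 overlaps Car9, a carbonic anhydrase gene, which was at 0 and 0.127 RPKM in the libraries labelled Mll1-/- with TNF and control solution and at 0.0182 and 0.0184 RPKM in wild type.

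Tpm1 encodes alpha-tropomyosin and gives long and short forms by alternative start sites and splicing. By its leading entry, Tpm1 was the most abundant tropomyosin transcript except in the wild-type control library, where Tpm4 was higher. The leading entry of Tpm1, NM_024427.4, was at 700.7 and 644.8 RPKM in the libraries labelled Mll1-/- with TNF and control solution, against 439 and 347 RPKM in wild type with TNF and control solution. Both libraries labelled Mll1-/- lay above both wild-type libraries, and within each label the TNF library was the higher. The fold between labels was 1.60 with TNF (1.57 to 1.63) and 1.86 without (1.82 to 1.90), with log2 ratios of 0.67 and 0.89 that stay within the size rule.

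Tpm3 and Tpm4, which supply tropomyosins of the general cytoskeleton, were within the size rule. Tpm3 was at 271.9 and 274.1 RPKM in the libraries labelled Mll1-/- with TNF and control solution and at 242 and 233 RPKM in wild type, folds of 1.12 (1.09 to 1.15) and 1.18 (1.15 to 1.21). Tpm4 was at 408 and 415 RPKM against 421 and 399 RPKM, folds of 0.969 (0.950 to 0.988) with TNF and 1.04 (1.02 to 1.06) without. The intervals of Tpm4 lie on opposite sides of 1 with and without TNF, and when reads were scaled without the 20 most abundant genes its log2 ratio was 0.06 in place of -0.05 with TNF and 0.36 in place of 0.06 without. Under the same scaling Tpm3 had 0.28 in place of 0.17 with TNF and 0.53 in place of 0.24 without.

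The make-up of the tropomyosin transcripts differed with the label. Summed over the 4 genes, tropomyosin RPKM came to 1495 and 1448 in the libraries labelled Mll1-/- with TNF and control solution, against 1105 and 982 in wild type, ratios of 1.35 with TNF and 1.48 without. Tpm2 made up 7.67% and 7.88% of that sum in the libraries labelled Mll1-/-, against 0.290% and 0.326% in wild type. The share of Tpm1 was 46.9% and 44.5%, against 39.7% and 35.4%. The share of Tpm4 was 27.3% and 28.7%, against 38.1% and 40.6%, and that of Tpm3 was 18.2% and 18.9%, against 21.9% and 23.7%. These shares are taken within a library, so no scaling between libraries can move them. The order of the genes was Tpm1, Tpm4, Tpm3, Tpm2 in each library but the wild-type control, where Tpm4 came first. The sums, shares and order rest on the Tpm1 entry used, the highest of several. The lowest Tpm1 entry was at 298 and 271 RPKM in the libraries labelled Mll1-/- with TNF and control solution. In wild type it was at 187 and 147 RPKM, and it lay below Tpm4 in each library.

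**Figure D1:**
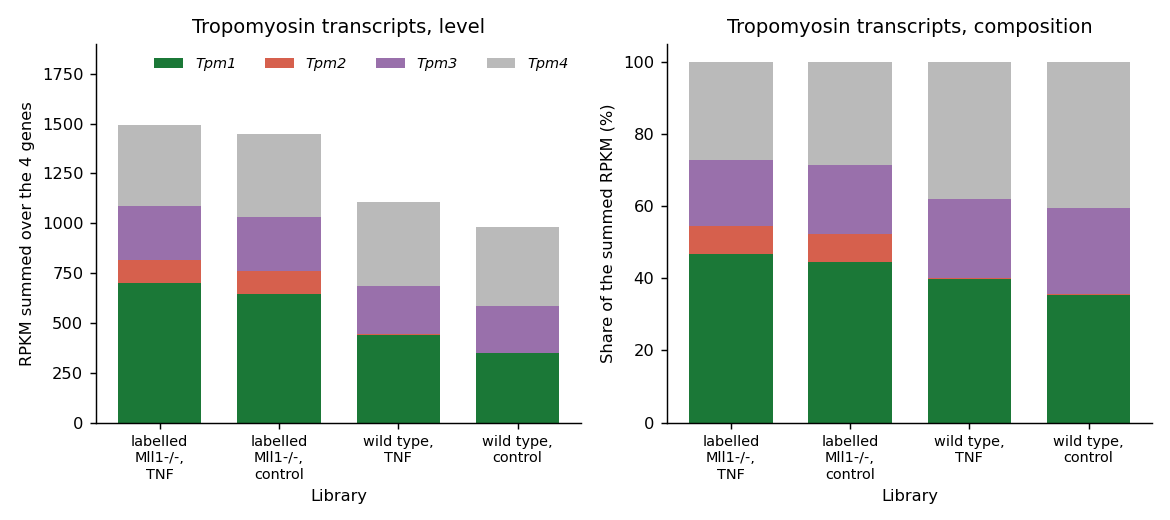
Left, RPKM summed over Tpm1 to Tpm4 in each library (stacked bars from 0); right, the share of that sum held by each gene in percent. Each bar is 1 library. Tpm2 is visible as a band of 7.67% and 7.88% in the libraries labelled Mll1-/- and is under 1% of the wild-type bars, and the Tpm4 band is widest in wild type.

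The promoters of Tpm2, Tpm1 and Acta2 are shown because the contractile genes are known to be driven by shared elements. Of these, Tpm1 stayed within the size rule in both comparisons of the labels. No promoter was at hand for Actg2, which passed it in both. The stretches below are the 250 bases before the RefSeq start site on GRCm38.p6, for Tpm2 at chr4:43523555-43523804, Tpm1 at chr9:67049214-67049463 and Acta2 at chr19:34255374-34255623, all on the minus strand and written 5′ to 3′. Capitals mark a CArG box with at most 1 mismatch, GGGCGG (an Sp1 element) or CATTCC (a TEAD element), on either strand.
Tpm2: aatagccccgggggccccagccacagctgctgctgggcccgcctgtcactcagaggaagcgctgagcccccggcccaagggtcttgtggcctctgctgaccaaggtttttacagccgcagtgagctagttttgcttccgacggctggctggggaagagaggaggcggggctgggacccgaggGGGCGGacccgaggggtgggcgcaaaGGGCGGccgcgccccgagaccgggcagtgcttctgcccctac
Tpm1: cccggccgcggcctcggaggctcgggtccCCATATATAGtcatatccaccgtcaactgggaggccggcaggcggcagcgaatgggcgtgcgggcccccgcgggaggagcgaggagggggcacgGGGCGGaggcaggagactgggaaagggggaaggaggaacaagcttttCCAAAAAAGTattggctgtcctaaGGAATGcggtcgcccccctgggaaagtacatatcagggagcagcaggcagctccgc
Acta2: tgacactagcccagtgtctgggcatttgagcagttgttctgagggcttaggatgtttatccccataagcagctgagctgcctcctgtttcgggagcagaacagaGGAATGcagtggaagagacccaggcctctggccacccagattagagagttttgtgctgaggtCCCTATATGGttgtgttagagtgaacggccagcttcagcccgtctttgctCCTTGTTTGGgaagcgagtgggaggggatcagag

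Tpm2 held GGGCGG at positions -68 and -42, and again at 42 past the start, and none of the CArG or CATTCC matches, counted from the start site. Tpm1 held CArG boxes with 1 mismatch at -221 and -80, GGGCGG at -127 and CATTCC at -56. Acta2 held CArG boxes with 1 mismatch at -84 and -34 and CATTCC at -146. RefSeq windows of 300 bases, 250 before and 50 after the start, were at hand for 8 of the 10 members, Tagln and Actg2 not among them. Tpm3 had 2 windows and was counted when either matched, so member counts are by gene while the percentages beside them are by window. A CArG box with at most 1 mismatch was found in 5 of the 8 (Acta2, Actc1, Myl9, Tpm1 and Tpm3), against 21.1% of 32851 mouse windows. GGGCGG was found in 5 of the 8 (all tropomyosins and Myl9), against 35.7% of windows, and CATTCC in 2, against 14.7%. The AP-1 element TGANTCA was in 0 of the 8, against 7.81% of windows, and TATAAA in 1 (Actc1), against 13.6%. An exact CArG box was present in Actc1 and Myl9 alone, against 1.63% of windows, and it is shown in capitals in 30 bases of each (Actc1 at chr2:114052903-114052932 on the minus strand, Myl9 at chr2:156775293-156775322 on the plus strand).
Actc1: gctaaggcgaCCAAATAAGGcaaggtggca
Myl9: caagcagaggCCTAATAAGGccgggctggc
Actc1 and Myl9 were at most 1.18 RPKM in the 4 libraries. A match of letters is a description and shows no binding.

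Of the muscle actins among the members, Actg2 passed the size rule in both comparisons of the labels, Acta2 with TNF only and Actc1 in neither. Acta2 (NM_007392.2), smooth muscle actin of stress fibres, was at 189 and 177 RPKM with TNF and control solution in the libraries labelled Mll1-/-, against 87.4 and 97.96 RPKM in wild type. Both libraries labelled Mll1-/- lay above both wild-type libraries for Acta2, and how many of all genes do likewise was not counted. The fold was 2.16 with TNF (2.08 to 2.25), past the size rule, and 1.80 without (1.74 to 1.87), within it. Actg2, the actin of enteric smooth muscle, was at 5.37 and 5.16 RPKM (139 reads in each) against 1.25 and 1.51 RPKM (47 and 56 reads), folds of 4.29 (3.06 to 6.10) with TNF and 3.43 (2.50 to 4.76) without. Actc1, cardiac actin, was near the floor at 0.969 and 1.18 RPKM (26 and 33 reads) against 0.489 and 0.571 RPKM (19 and 22 reads), folds of 1.98 (1.06 to 3.79) and 2.07 (1.17 to 3.73).

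Actin genes have similar coding sequences, so reads may be split among them. The values of Acta1, Acta2, Actg2 and Actc1 are uncertain for that reason. The cytoplasmic actins Actb and Actg1 were the bulk of actin transcripts, with Actb at 4309 and 4442 RPKM in the libraries labelled Mll1-/- with TNF and control solution and at 3255 and 3673 RPKM in wild type. Skeletal actin, Acta1, was at 208 and 203 RPKM against 142 and 175 RPKM, a level above that of Acta2 in each library. Acta2 made up 2.60% and 2.45% of the RPKM of the actin genes Actb, Actg1, Acta1, Acta2, Actg2 and Actc1 in the libraries labelled Mll1-/-, against 1.61% and 1.59% in wild type. Acta1 made up 2.86% and 2.82%, against 2.62% and 2.84%. The share of Acta2 thus differed with the label, and the share of Acta1 stayed between 2.62% and 2.86% in all 4 libraries.

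**Figure D2:**
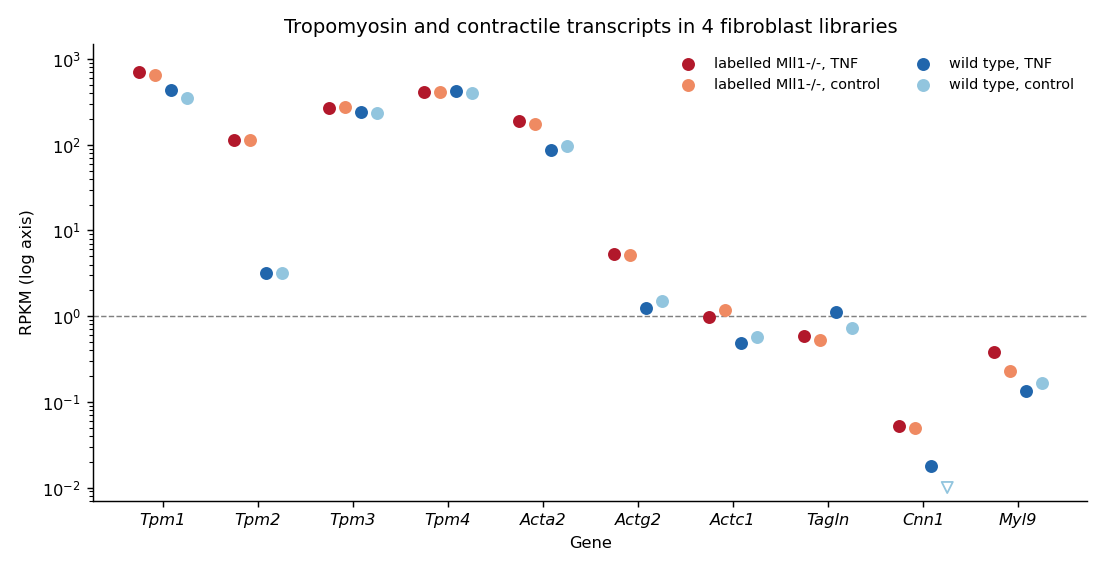
RPKM of each of the 10 genes (log axis) in each of the 4 libraries, 1 point per library. The dashed line marks 1 RPKM, and the open triangle, drawn at the foot of the axis, is a library with 0 reads. Tpm2 shows the widest gap between labels, and the values of Tpm4 overlap between labels. Tagln, Cnn1 and Myl9 lie at or below about 1 RPKM in all libraries.

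Of the smooth muscle and myofibroblast markers among the members, Acta2 was abundant, and Tagln, Cnn1 and Myl9 were at 0 to 1.10 RPKM. Tagln, an actin cross-linking protein of smooth muscle, was at 0.588 and 0.534 RPKM (18 and 17 reads) in the libraries labelled Mll1-/- with TNF and control solution, against 1.10 and 0.728 RPKM (49 and 32 reads) in wild type. It is the only member that was lower in both comparisons, with folds of 0.532 (0.292 to 0.930) with TNF and 0.734 (0.382 to 1.36) without, and the second interval includes 1. Tagln overlaps the protease gene Pcsk7, which was at 6.25 and 5.82 RPKM against 6.20 and 7.24 RPKM. Strand is not given in the sources used here, so reads of these neighbours cannot be told apart. Cnn1, basic calponin, had 2, 2, 1 and 0 reads in the libraries labelled Mll1-/- with TNF and control solution and in wild type with TNF and control solution. A count of 0 allows up to 3 reads, or 0.0545 RPKM in the wild-type control library, so all 4 values are at the floor and no fold is given. Myl9, the regulatory light chain of smooth muscle myosin, had 8 and 5 reads against 4 and 5 reads, and its intervals of 0.776 to 13.2 with TNF and 0.318 to 5.9997 without include 1.

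Their broadly expressed relatives were abundant. Tagln2 was at 224 and 182 RPKM in the libraries labelled Mll1-/- with TNF and control solution and at 189 and 168 RPKM in wild type, over 99% of the summed RPKM of Tagln, Tagln2 and Tagln3 in each library. Cnn2 was at 249 and 299.9 RPKM against 287 and 342 RPKM, and Cnn3 at 135 and 144 RPKM against 125 and 129.9 RPKM. The light chain genes Myl12a and Myl12b, whose products regulate non-muscle myosin, were at 294 and 208 RPKM against 328 and 322 RPKM, and at 197 and 129.6 RPKM against 231 and 243 RPKM. The library labelled Mll1-/- with control solution was the lowest of the 4 for both light chains.

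By the size rule, 3 of the 8 members measured (Tpm2, Actg2 and Acta2) were higher in the library labelled Mll1-/- with TNF, where 6.71% of all genes and unnamed entries were higher, and 0 were lower, where 4.50% were lower. With control solution, 2 of the 8 (Tpm2 and Actg2) were higher, against 7.11% of all, and 0 were lower, against 7.99%. The median log2 ratio of the 8 was 0.62 with TNF and 0.75 without, beside -0.05 and -0.07 over all genes compared. Actc1 passed the 1 RPKM minimum only through the control library labelled Mll1-/-, in which it is high, and Tagln only through the wild-type TNF library. Short transcripts had lower ratios in the comparison without TNF: the median was -0.53 in the lowest of 10 length classes and 0.26 in the highest. The members' transcripts, 1083 to 2098 bases long, fall in length classes 3 to 5, whose medians lay between -0.29 and -0.13. With the length trend removed Tpm1 reached a log2 ratio of 1.001 without TNF, and 3 members were then counted as higher.

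**Figure D3:**
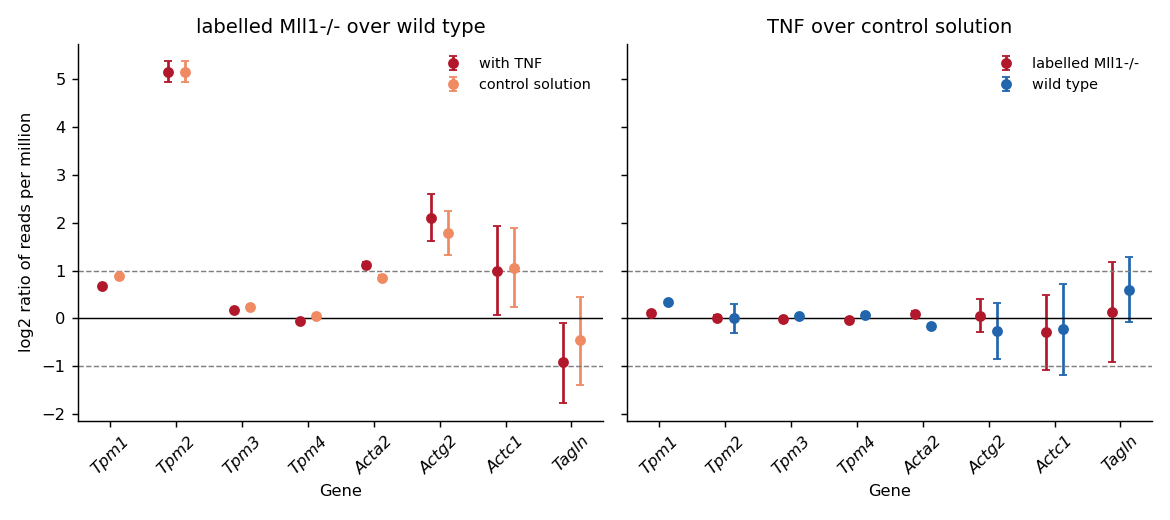
Log2 ratio of RPM for the 8 genes with at least 1 RPKM, labelled Mll1-/- over wild type (left) and TNF over control solution (right). Bars are 95% counting intervals and dashed lines mark log2 1 and -1. On the left Tpm2 lies near 5 and Actg2 near 2, and on the right all 8 genes lie between the dashed lines.

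TNF left the members within the size rule in both genotypes. In the libraries labelled Mll1-/-, 0 of 8 were higher and 0 lower with TNF, where 0.688% and 0.160% of all genes and unnamed entries were. In wild type 0 and 0 were counted, where 0.521% and 0.0556% of all were. The difference in TNF response, libraries labelled Mll1-/- minus wild type, was past the size rule upward for 0 members and downward for 0, where 0.758% and 0.424% of all were. Tpm1 had the largest TNF ratio with an interval clear of 1, at 439 RPKM with TNF against 347 RPKM with control solution in wild type, 1.26-fold (1.24 to 1.29), and 1.09-fold (1.07 to 1.11) in the libraries labelled Mll1-/-. The difference of these log2 ratios was -0.22 from reads (interval -0.26 to -0.18). It was -0.41 when reads were scaled without the 20 most abundant genes and -0.34 with the length trend removed, both outside that counting interval. Tpm3 and Tpm4 were 1.04-fold (1.02 to 1.07) and 1.06-fold (1.04 to 1.07) higher with TNF in wild type, and 0.992-fold (0.965 to 1.02) and 0.982-fold (0.961 to 1.003) in the libraries labelled Mll1-/-.

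Acta2 went the other way in wild type. It was at 87.4 RPKM with TNF against 97.96 RPKM with control solution there, 0.892-fold (0.856 to 0.929), and at 189 against 177 RPKM in the libraries labelled Mll1-/-, 1.07-fold (1.03 to 1.11), a difference of log2 ratios of 0.26 (0.19 to 0.34). Actb and Actg1 were also lower with TNF in wild type, at log2 -0.17 and -0.21. The ratios of Acta2 and Tpm1 in the libraries labelled Mll1-/-, at log2 0.10 and 0.12, stand beside a median of 0.11 for transcripts of their length class in that comparison, and they were -0.07 and -0.04 when reads were scaled without the 20 most abundant genes. For Tpm2, TNF gave 1.01-fold (0.965 to 1.05) in the libraries labelled Mll1-/- and 1.002-fold (0.814 to 1.23) in wild type, and the interval of the difference reached from -0.29 to 0.30 on the log2 scale. Tagln had 49 reads with TNF and 32 with control solution in wild type, 1.52-fold with an interval of 0.953 to 2.45.

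Tpm1 is represented by 10 transcript entries, and each of them was higher in the libraries labelled Mll1-/-. Their log2 ratios lay between 0.64 and 0.70 with TNF and between 0.81 and 0.95 without TNF. In wild type the 10 TNF ratios lay between 0.32 and 0.35. The entries share most of their reads, so they are not 10 measurements. What differs among them comes from the alternative exons of Tpm1: a first exon at the distal start (1a) or at an internal start (1b), exon 2a or 2b after the distal start, exon 6a or 6b, and alternative last exons. The exons of each entry were taken from the GENCODE M21 transcript matched to its accession. Entries that differ by 1 choice give the excess of reads of one exon over the other, and the excess of 6b over 6a came out as the same whole number in each of 3 pairs of entries in every library. The entry NM_001164254.1 was left out, because its reads equal those of a transcript with exon 6b, whereas its GENCODE match has 6a.

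Exon 6b exceeded exon 6a by 1094 and 1155 reads in the libraries labelled Mll1-/- with TNF and control solution, against 698 and 533 reads in wild type. This excess was 56.7 and 57.5 RPM, against 24.9 and 19.2, ratios of 2.27 with TNF and 2.99 without, which are ratios of a difference in reads and not folds of an exon's level. The excess of exon 2b, the version used in fibroblasts, over exon 2a, which smooth muscle uses, was 108.6 and 115.8 RPM against 63.4 and 52.1, ratios of 1.71 and 2.22. The distal start with exon 2b exceeded the internal start by 166 and 177 RPM against 98.9 and 81.4, ratios of 1.68 and 2.17. These 3 excesses were higher in both libraries labelled Mll1-/- than in both wild-type libraries. The last exon of the leading entry (end 1) exceeded another (end 2) by 564 and 500.4 RPM against 359 and 282 RPM. The ratios were 1.57 and 1.77. A further last exon (end 3) exceeded end 2 by 38 and 23 reads against 25 and 42 reads, with ratios of 2.20 with TNF and 0.756 without. With the other exons alike, the entry is 1702 bases long with end 1, 1577 with end 2 and 1210 with end 3. The size of an excess between ends therefore mixes length with use. The entries compared at exon 2 and at exon 6 are equal in length, and those compared at the start differ little, such as 1702 against 1675 bases. As a share of the entry's reads, the 6b excess was 4.75% and 5.24% against 3.34% and 3.25%, and the 2b excess was 9.11% and 10.6% against 8.48% and 8.81%. The share at the start was 13.9% and 16.1% against 13.2% and 13.8%. For end 1 over end 2 it was 47.3% and 45.6% against 48.1% and 47.8%, lower in the libraries labelled Mll1-/-. With TNF the excesses at exon 6, exon 2 and the start were 0.985, 0.938 and 0.938 of the control value in the libraries labelled Mll1-/-, and 1.30, 1.22 and 1.21 of it in wild type. Only differences can be recovered from the entries, so the level of each exon and a counting interval are not given.

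**Figure D4:**
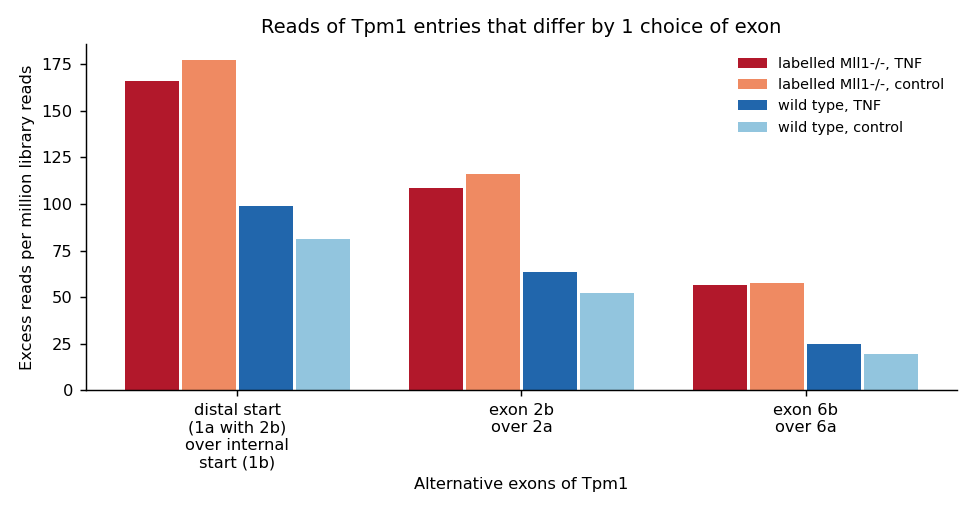
Excess reads per 1000000 library reads of one alternative exon of Tpm1 over the other, in each of the 4 libraries (bars from 0). For exon 6b over 6a the bars are 56.7 and 57.5 in the libraries labelled Mll1-/- and 24.9 and 19.2 in wild type.

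The other smooth muscle genes were mostly low. Of 16 on the list, 7 reached 1 RPKM, of which 2 were higher and 0 lower in the libraries labelled Mll1-/- with and without TNF (median log2 0.40 and 0.37). For this list and each list below, the shares of all genes and unnamed entries stand beside the counts. These were 6.71% higher and 4.50% lower with TNF, and 7.11% and 7.99% without. Hspb6, a small heat shock protein of muscle, was at 24.3 and 27.7 RPKM in the libraries labelled Mll1-/- with TNF and control solution, against 5.17 and 6.73 RPKM in wild type. Des, the muscle intermediate filament protein desmin, was at 2.99 and 3.78 RPKM against 0.975 and 1.28 RPKM. Mylk, myosin light chain kinase, was among the lowest of the list, with a log2 ratio of 0.28 without TNF. The smooth muscle coactivator Myocd, chosen after its values were seen, did not reach 1 RPKM, at 0.182 and 0.155 RPKM against 0.0279 and 0.0141 RPKM.

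Stress fibre and focal adhesion genes were measured at 1 RPKM or more for 20 of 20. Of these 5 were higher and 1 lower with TNF, and 6 higher and 1 lower without, with medians of 0.55 and 0.61. Fhl1, a LIM protein of muscle and stress fibres, was at 19.3 and 20.2 RPKM in the libraries labelled Mll1-/- with TNF and control solution, against 0.106 and 0.138 RPKM in wild type. It passed the 1 RPKM minimum only through the libraries in which it is high. Tln1, talin, which couples integrins to actin, was at 113 and 131 RPKM against 37.7 and 39.6 RPKM. Pdlim1, an actinin-binding protein, was at 49.2 and 41.9 RPKM against 147 and 149.7 RPKM, and the LIM protein gene Csrp2 had a log2 ratio of -0.70 without TNF. Of 10 measured actin, myosin, calponin and transgelin relatives of broad expression, 0 were higher and 0 lower in either comparison (medians 0.21 and 0.10). Myh9, the heavy chain of non-muscle myosin, was at 228 and 291 RPKM against 146 and 157 RPKM (log2 0.64 and 0.89), and Myh10 had 0.46, Myl12a -0.63 and Myl12b -0.91 without TNF.

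Of the genes that cap filament ends with tropomyosin, Tmod1 and Tmod3 reached 1 RPKM. Tmod1, tropomodulin 1, was at 13.2 and 15.02 RPKM in the libraries labelled Mll1-/- with TNF and control solution, against 5.50 and 4.95 RPKM in wild type, and Tmod3 had log2 ratios of 0.16 and 0.30. Of 9 measured genes that set light chain phosphorylation, 1 was higher and 0 lower in each comparison. This was the phosphatase subunit gene Ppp1r12b, at 5.997 and 6.27 RPKM against 2.14 and 1.95 RPKM, followed without TNF by Ppp1r12a (0.67), with Ppp1r12c (-0.17) and Ppp1r14b (-0.75) lowest. Of 8 measured genes for serum response factor, its coactivators and targets, 0 were higher and 1 lower. Srf itself was at 13.2 and 14.3 RPKM against 7.70 and 9.97 RPKM (log2 0.74 and 0.50), Elk4 had 0.94 and Elk1 -0.51 without TNF, and the immediate-early gene Egr1 was at 0.303 and 0.276 RPKM against 1.19 and 2.12 RPKM. Egr1 passed the 1 RPKM minimum only through the wild-type libraries.

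**Figure D5:**
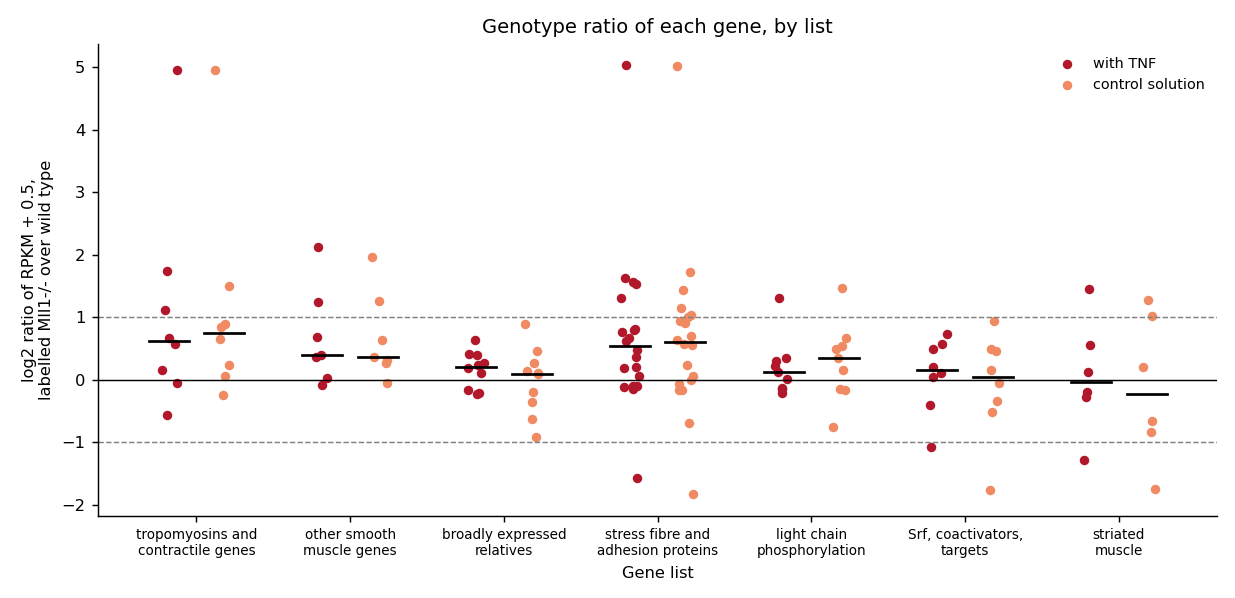
Log2 ratio of RPKM + 0.5, labelled Mll1-/- over wild type, of each gene with at least 1 RPKM in 7 gene lists, with TNF and with control solution. Black lines are medians and dashed lines mark log2 1 and -1. The points near 5 are Tpm2 and Fhl1, and the medians of the tropomyosin and contractile genes are 0.62 and 0.75.

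Markers of other cell types gave the following levels, whose part in the results was not tested. Of 20 striated muscle genes in the table, 6 reached 1 RPKM, and their summed RPKM was 249 and 242 in the libraries labelled Mll1-/- with TNF and control solution, against 161 and 197 in wild type, most of it Acta1. Tnnt2, cardiac troponin T, was at 36.2 and 34.2 RPKM against 12.8 and 13.9 RPKM, while Tnnc1 was at 1.03 and 0.779 RPKM against 3.20 and 3.80 RPKM. Tnnc2 had log2 ratios of -0.27 with TNF and 1.03 without, from 12 to 31 reads a library, and Myl4 had 0.12 and -0.83, so the sign differed with TNF for both. The striated genes Ckm, Tnni1, Myh2, Myh4 and Mb, named outside the rule for their low counts, had 0 reads in 3 of the 4 libraries each and 1 read in the other. Others of the list below 1 RPKM had more reads. Neb had 8 and 12 reads against 6 and 7, and Ryr1 had 2 and 0 against 9 and 12. Of 7 pericyte genes in the table, 3 reached 1 RPKM, and the list summed to 22.2 and 30.9 RPKM against 21.97 and 27.9 RPKM. Notch3, at 0.228 and 0.251 RPKM against 2.82 and 3.67 RPKM, and Cspg4, at 1.36 and 1.33 RPKM against 5.80 and 5.35 RPKM, were lower in the libraries labelled Mll1-/-, and Pdgfrb was within the size rule (log2 0.59 and 0.62). Notch3 passed the 1 RPKM minimum only through the wild-type libraries. Of 8 measured fibroblast genes 6 were higher and 0 lower with TNF, and 6 higher and 1 lower without, where S100a4 (log2 -1.14) and Vim (-0.15) were the lowest. Among those counted as higher, Col3a1, Pdgfra and Dcn passed the minimum only through the libraries labelled Mll1-/-, in which they are high. None of 6 endothelial, 6 epithelial and 3 leukocyte genes in the table reached 1 RPKM, and each list summed to at most 1.04 RPKM in a library.

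The genes beside Tpm2 on its chromosome also had ratios above 0. The nearest 3 genes on each side with at least 1 RPKM in a library were taken for each member, a choice made by position in the RefSeq gene table after the values of Tpm2 were known. Of the 6 beside Tpm2, 3 were higher by the size rule and 0 lower with TNF, and likewise without, and all 6 had log2 ratios above 0 in both comparisons. Tln1, the nearest on one side, is described above. Arhgef39, an exchange factor gene and the nearest on the other side, was at 10.3 and 8.12 RPKM in the libraries labelled Mll1-/- with TNF and control solution, against 2.06 and 2.38 RPKM in wild type. Creb3, a membrane-bound transcription factor gene, was at 42.7 and 38.8 RPKM against 18.6 and 18.8 RPKM. Of the 54 genes beside the other 9 members, 2 were higher and 2 lower with TNF, and 2 higher and 3 lower without. Among those counted, Scg5 passed the 1 RPKM minimum only through the libraries labelled Mll1-/-, where it is high, and Vax2 only through wild type. Over all genes and unnamed entries, 6.71% were higher and 4.50% lower with TNF, and 7.11% and 7.99% without. The death receptor gene Fas, the nearest gene after Acta2 and chosen after its values were seen, was higher with TNF, at 13.001 RPKM against 3.69 RPKM with control solution in the libraries labelled Mll1-/- and at 9.72 RPKM against 2.45 RPKM in wild type.

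The profiles most like those of Acta2, Tagln and Tpm2 were sought by the root mean square distance between log2 values centred over the 4 libraries, among named genes with at least 3 RPKM in the highest library. Kdm8 (distance 0.024), Stk17b (0.030) and Dusp5 (0.045) were nearest to Acta2, where the median distance of 9575 genes was 0.542. Foxo3 (0.019), Nub1 (0.027) and Rad52 (0.030) were nearest to Tagln, where the median of 9576 genes was 0.281. Tagln had only 17 to 49 reads a library, and the 0.5 RPKM added before the log shrinks its ratios more than those of these genes. Fhl1 (0.050) and Gm16897 (0.141) were among the nearest to Tpm2, where the median was 2.51. With 4 libraries such a likeness describes little more than the genotype ratio and the TNF ratio of a gene.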

How the data were processed

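RNA sequencing of 4 pooled libraries gave 1 table of RPKM values for 27344 transcript entries, which the authors deposited without replicates. Per the submitters' processing notes, TopHat and DESeq were used, with no version or role given. Which genome build, annotation, counting program and strand setting were used is not given in the sources used here. Because RPKM are whole reads times a constant, library totals and transcript lengths were recovered, and 99.99% of the entries gave whole reads in all libraries within 0.0001 reads. Where all reads of an entry share a divisor, its reads are a lower bound. The recovery and the size rule were tested on simulated data.

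Accessions were named through RefSeq (20849 entries) and GENCODE M21 (102 entries), and 6393 stayed unnamed. Ratios used log2(RPKM + 0.5) for entries with at least 1 RPKM in 1 library, and counting intervals used scipy 1.17.1 under Python 3.11.15. No test between groups was run with 1 library each. Some genes that the rule would name are not reported here. Unless stated, named genes are the members, their families, neighbours and nearest profiles, the targeted gene, and the 2 highest and 2 lowest ratios of each list without TNF. Members and lists were chosen with earlier results of these data known, and no count is independent support. Other pseudocounts, scalings, a length correction, entry choices and filters were tried.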

Additional observations from a re-analysis of the deposited data

Results flagged for a closer look

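Acta2 had TNF ratios on opposite sides of 1 in the genotypes, with both counting intervals clear of 1: 1.07-fold in the libraries labelled Mll1-/- and 0.892-fold in wild type. Each direction rests on 1 pair of libraries, and the difference was not tested. When reads were scaled without the 20 most abundant genes, the log2 ratio in the libraries labelled Mll1-/- was -0.07 in place of 0.10, and the difference between the genotypes was 0.07 in place of 0.26.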

How the results depend on the processing

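No paired analysis was possible because each group is 1 library. The counts of members past the size rule stayed within 1.5 times of those given under 8 of the 9 other settings. With the 20 most abundant genes left out, which shifts the median of all genes by 0.28 without TNF, 4 members were higher without TNF in place of 2, Tpm1 (1.19) and Acta2 (1.15) being the added genes; the cause was not tested. With TNF that setting shifts the median by 0.10 and 3 members were higher, as before. Reads with no pseudocount gave 3 members higher without TNF, Actc1 (1.05) being added, and so did removal of the length trend. The median difference in TNF response over the members, -0.08, lay between -0.24 and -0.06 over all settings. The log2 ratio of Tpm2 between labels lay between 4.78 and 5.24 without TNF and between 4.78 and 5.16 with TNF over all settings, and that of Actg2 between 1.30 and 1.78 and between 1.499 and 2.10. Among 50 values of single members (47 for reads with no pseudocount), 8 changed sign with the 20 most abundant genes left out. Upper-quartile scaling changed 4, removal of the length trend 4, median-ratio scaling 2 and the other settings 0. Of those other settings, the filter leaves each value as it was and averaging entries can move Tpm1 alone. A pseudocount cannot turn the sign of a ratio of 2 libraries. No value past the size rule changed sign. Depth limits Cnn1, Myl9, Tagln and Actc1, which had at most 49 reads in a library.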
